A study of Danio rerio with 26 samples.

Results

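Cytosolic ribosomal proteins are the proteins of the 40S and 60S subunits that translate nuclear-encoded mRNAs. Their genes were taken by symbol (rpl, rps or rplp followed by a digit, in either case), leaving out the rps6k kinases, rps19bp1 and rpl22l1, which share the prefix and are 12 of the symbols that match. This gave 77 genes, 45 of the large and 32 of the small subunit, of 30919 genes in the table of magoh mutants, 30948 and 30944 in the tables of rbm8a mutants at 21 and 27 hours post-fertilization (hpf), and 28441 in the table of upf1 morphants. The study asked how zebrafish embryos respond to loss of the exon junction complex (EJC), a set of proteins left on mRNA where exons were joined, and of Upf1, the helicase of nonsense-mediated decay (NMD). The mutant groups were homozygous magoh oz37 embryos at 21 hpf and homozygous rbm8a oz36 embryos at 21 and at 27 hpf, both frame-shifting CRISPR/Cas9 deletions in the AB background from crosses of heterozygotes, each beside its own siblings, a mix of wild-type and heterozygous embryos. Each of these groups has 3 libraries of 25 whole embryos, depleted of ribosomal RNA and strand-specific. The morphants were embryos injected at the 1-cell stage with 2 ng of a splice-blocking upf1 morpholino and collected at 12 hpf, beside uninjected wild-type embryos, with 2 poly(A) libraries of 30 embryos per group. The authors call the libraries of a group biological replicates. At least 1 library of each mutant experiment came from a separate sequencing run, which the labels do not name. The labels also do not say whether libraries come from separate clutches. The p-values thus measure the spread between these libraries, which may be in part technical.

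A ribosome holds 1 copy of nearly every ribosomal protein, and the mRNAs of these proteins are short and among the most abundant of growing cells. In vertebrates they begin with a 5′ terminal oligopyrimidine (5′TOP) tract, by which nutrient signalling sets their translation as a group. Maternal stores make the early ribosomes of a zebrafish embryo, and the zygotic genes are active by the stages sampled here. In nematodes the counterparts of rpl3 and rpl10a are known for unproductively spliced transcripts that NMD removes. The human RPL3 and RPL12 genes have such transcripts too. Reads were counted per gene here, so such transcripts were not told apart from productive ones.

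Levels are given in FPKM, fragments per kilobase of gene with a scaling of each library. The authors computed them within a table, so levels are compared within a table only. All 77 members passed the filter on low values (0.5 FPKM in at least 3 libraries of a mutant table or 2 of the morphant table) in the mutant tables and 76 in the morphant table. Depth was recovered from the FPKM and the mean normalized counts: 1561184 to 95877745 reads per library, of which 4627 to 4167628 fell on the members. The FPKM scale of the mutant tables did not follow this depth. In the magoh library labelled mutant 1, of 19536839 reads, the members had a median of 2439 reads and 401 FPKM. In mutant 2, of 23618644 reads, the medians were 455 reads and 13.2 FPKM. Gaps in FPKM between libraries of these tables are thus not gaps in read share. Cell markers fit whole embryos, with epidermal, muscle, nervous system, notochord, red cell and yolk syncytial layer markers in all mutant tables, while at 12 hpf red cell markers summed to 2.44 and 2.71 FPKM in morphants and 2.34 and 2.57 FPKM in controls. The targeted genes check the labels poorly: in its own table magoh stood at 17, 3.67 and 3.58 FPKM under the mutant label and 4.42, 13.6 and 6.51 FPKM under the sibling label, and rbm8a overlapped between labels at both stages. The columns of the mutant tables alternate between mutant and sibling, so the first 3 columns and the last 3 each hold both labels. The upf1 mRNA was at 30.3 and 31.3 FPKM in morphants and 45.2 and 45.9 FPKM in controls (log2 difference −0.55 ± 0.04 (SE), limma adjusted p = 0.00104).

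By mean level the ends of the members' order were shared by the 4 tables. The highest mean belonged to rplp0, the protein that anchors the stalk of the large subunit, in all 4 tables: 469 FPKM in magoh mutants and siblings, 356 and 519 FPKM at 21 and 27 hpf in rbm8a mutants and siblings, and 1772 FPKM in the morphant table. Next came rps14 and rps15 in the magoh table, rps2 and rps14 in both rbm8a tables, and rpl26 and rps2 in the morphant table. Among the 3 lowest in every table were rps24 and rpl7l1, with means of 94.1 and 53.7 FPKM in the morphant table. At 12 hpf the libraries separate the top of the order, since rplp0 had 1692 and 1636 FPKM in morphants and 1889 and 1869 FPKM in controls, above rpl26 with 1377 and 1354 FPKM in morphants and 1474 and 1495 FPKM in controls. Below it rps2 had 1232 and 1154 FPKM in morphants and 1349 and 1344 FPKM in controls, and again did not overlap rpl26 within either group. In the magoh table rps14 and rps15 cannot be ordered, as rps15 was the higher of the 2 in the libraries labelled mutant 1 and sibling 2 and the lower in the other 4. In those 4 rps14, and not rplp0, was the highest member, at 105, 111, 89.2 and 103 FPKM in mutant 2 and 3 and sibling 1 and 3. The means of this table are weighted by mutant 1, where the highest member had 2023 FPKM.

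In the magoh table and the rbm8a table of 21 hpf the members moved together between libraries, and single libraries of the same label lay far apart. In the magoh table the median FPKM of the 77 members was 401, 13.2 and 13.2 in the libraries with the labels mutant 1, 2 and 3 and 10.9, 109 and 15.9 in those labelled sibling 1, 2 and 3. The library labelled mutant 1 thus stood highest and sibling 2 next, on opposite sides of the label, and the other 4 lay close together. Of the 77 members 76 had their highest value in mutant 1. As a share of recovered reads the members took 1.17% in mutant 1 (95% Wilson interval 1.17 to 1.18%), 0.208% (0.206 to 0.210%) in mutant 2 and 0.211% (0.209 to 0.213%) in mutant 3, and 0.195% (0.192 to 0.197%), 0.741% (0.737 to 0.745%) and 0.227% (0.225 to 0.230%) in sibling 1, 2 and 3. These intervals cover counting error only. The FPKM summed over all genes differed too, at 1.27e+07, 9.14e+05 and 9.17e+05 in mutant 1, 2 and 3. In sibling 1, 2 and 3 that sum was 7.99e+05, 4.32e+06 and 8.87e+05. Of it the members took 0.265, 0.152 and 0.154% in mutant 1, 2 and 3 and 0.150, 0.213 and 0.164% in sibling 1, 2 and 3. By this share the libraries lay closer together than by the members' median FPKM.

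**Figure D1:**
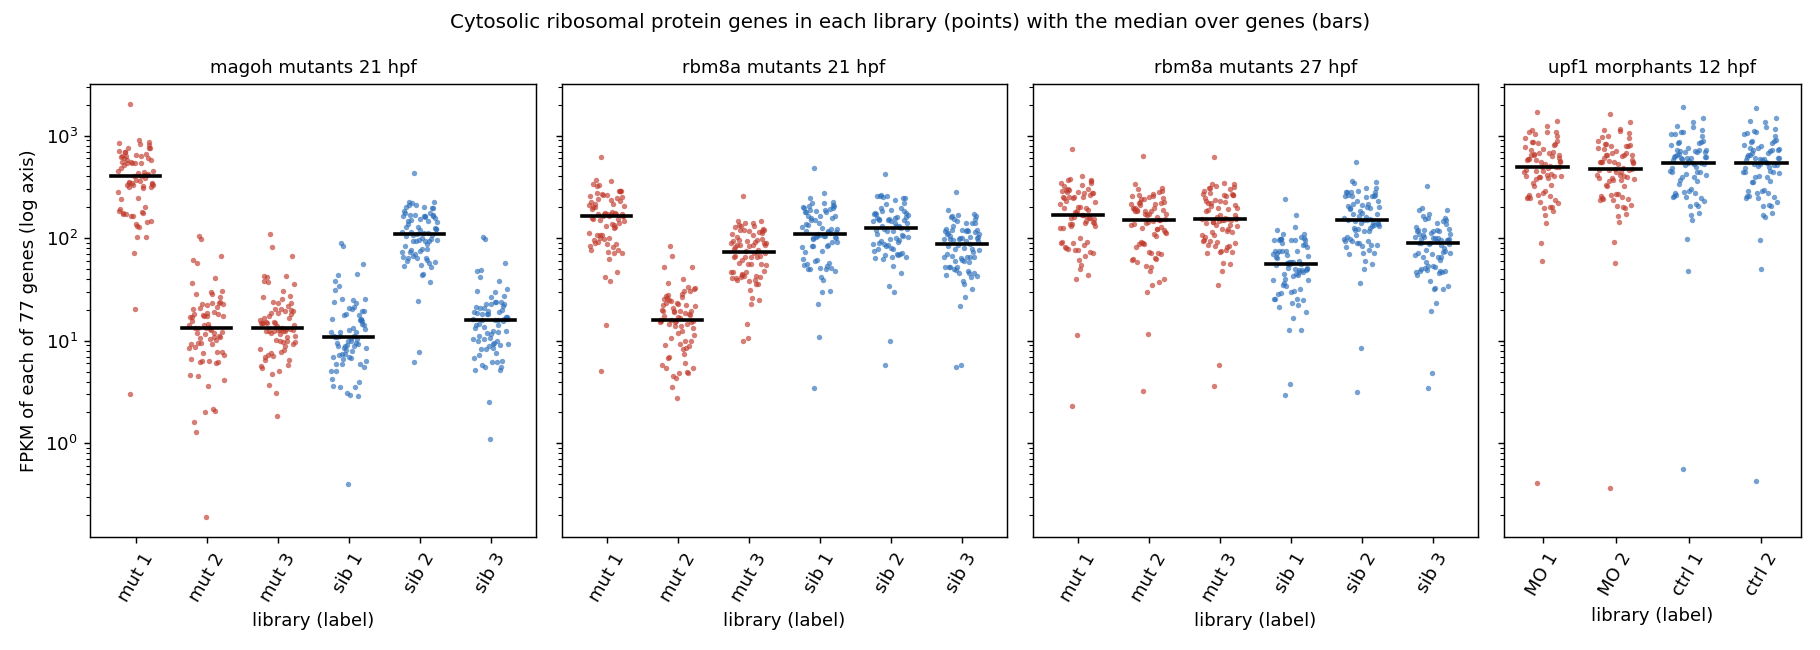
FPKM (log axis) of the 77 cytosolic ribosomal protein genes (points) and their median (black bars) in each library of the 4 tables, mutant or morphant libraries in red on the left of each panel and siblings or controls in blue; tables were scaled separately, so levels compare within a panel only. In the magoh table the medians of mutant 1 (401 FPKM) and sibling 2 (109 FPKM) stand above the other 4 libraries (10.9 to 15.9 FPKM), and at 12 hpf the medians of both morphant libraries (492 and 472 FPKM) lie below both controls (538 and 541 FPKM).

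The spread of a single member over the 6 magoh libraries had a median of 5.10 on the log2 scale of FPKM + 1, against 1.5 over all 30281 genes tested. The widest was rpl32, with 692, 1.28 and 14.7 FPKM in the libraries with the labels mutant 1, 2 and 3 and 8.97, 225 and 21.0 FPKM in sibling 1, 2 and 3. Among the narrowest was rps14, a platform protein of the small subunit, with 757, 105 and 111 FPKM in mutant 1, 2 and 3 and 89.2, 222 and 103 FPKM in sibling 1, 2 and 3. Both genes were highest in mutant 1 and next in sibling 2, and rps14 lay higher in the other 4. Large and small subunit members moved alike, with median spreads of 5.15 and 4.65. The members' order by level was shared by mutant 1 and sibling 2 (Spearman rho 0.936 across the 77 members) more than by mutant 1 and the other mutants (0.568 and 0.724); over all genes tested the same pairs had rho of 0.834, 0.431 and 0.462. These correlations are across genes, which are not independent replicates.

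Other lists followed the members in these libraries to different degrees. The median deviation from each gene's own mean was 3.50 in the library labelled mutant 1 and 1.63 in sibling 2 for the members (log2), and −1.46 to −1.09 in the other 4. For the 6 measured genes of other ribosome components (among them rpsa, gnb2l1, which is Rack1, the ubiquitin-like fusions faua and faub, and rpl22l1) it was 3.72 in mutant 1 and 1.79 in sibling 2. Of these faub went otherwise, with 5.41, 18.2 and 14.5 FPKM in mutant 1, 2 and 3 and 11.4, 2.31 and 10.5 FPKM in sibling 1, 2 and 3. For 28 genes whose mammalian counterparts have 5′TOP mRNAs, translation factors among them, it was 1.48 in mutant 1 and 0.43 in sibling 2. For the 73 mitochondrial ribosomal proteins it was 0.94 and 0.35. Ribosome biogenesis factors stood at 0.90 in mutant 1 and 0.04 in sibling 2, and all genes tested at 0.01 and 0.03. Several tissue markers were highest in mutant 1 and sibling 2 too. The summed epidermal keratin and claudin markers came to 3593, 128 and 145 FPKM in the libraries with the labels mutant 1, 2 and 3 and 124, 887 and 148 FPKM in sibling 1, 2 and 3, and the yolk syncytial layer markers to 2161, 91.2 and 85.5 FPKM in mutant 1, 2 and 3 and 66.9, 573 and 76.6 FPKM in sibling 1, 2 and 3. Muscle markers had 836, 69.4 and 77.6 FPKM in mutant 1, 2 and 3 and 71.7, 280 and 85.5 FPKM in sibling 1, 2 and 3. Nervous system markers had 139, 43.6 and 40.2 FPKM in mutant 1, 2 and 3 and 39.6, 69.3 and 46.0 FPKM in sibling 1, 2 and 3, and red cell markers 198, 17.5 and 18 FPKM in mutant 1, 2 and 3 and 15.8, 106 and 15.0 FPKM in sibling 1, 2 and 3. Notochord markers went otherwise, with 87.2, 37.1 and 32.5 FPKM in mutant 1, 2 and 3 and 36.4, 26.8 and 32.1 FPKM in sibling 1, 2 and 3, the lowest sum being that of sibling 2. All 5, all 5 and 9 markers of the epidermal, yolk and muscle lists were in the table, and none was at 0 in any of the 6 libraries. The part of these cell types in the members' levels was not tested. Gene length, read from the mean normalized count per FPKM, moved with the pattern at its short end. Of 10 length groups the shortest, with 0 members, had a median deviation of 1.95 in mutant 1 and 1.1 in sibling 2 over its 3029 genes. The next group, with 27 of the 77 members, had −0.003 in mutant 1 and 0.22 in sibling 2 over its 3028 genes. The part of length was not tested.

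**Figure D2:**
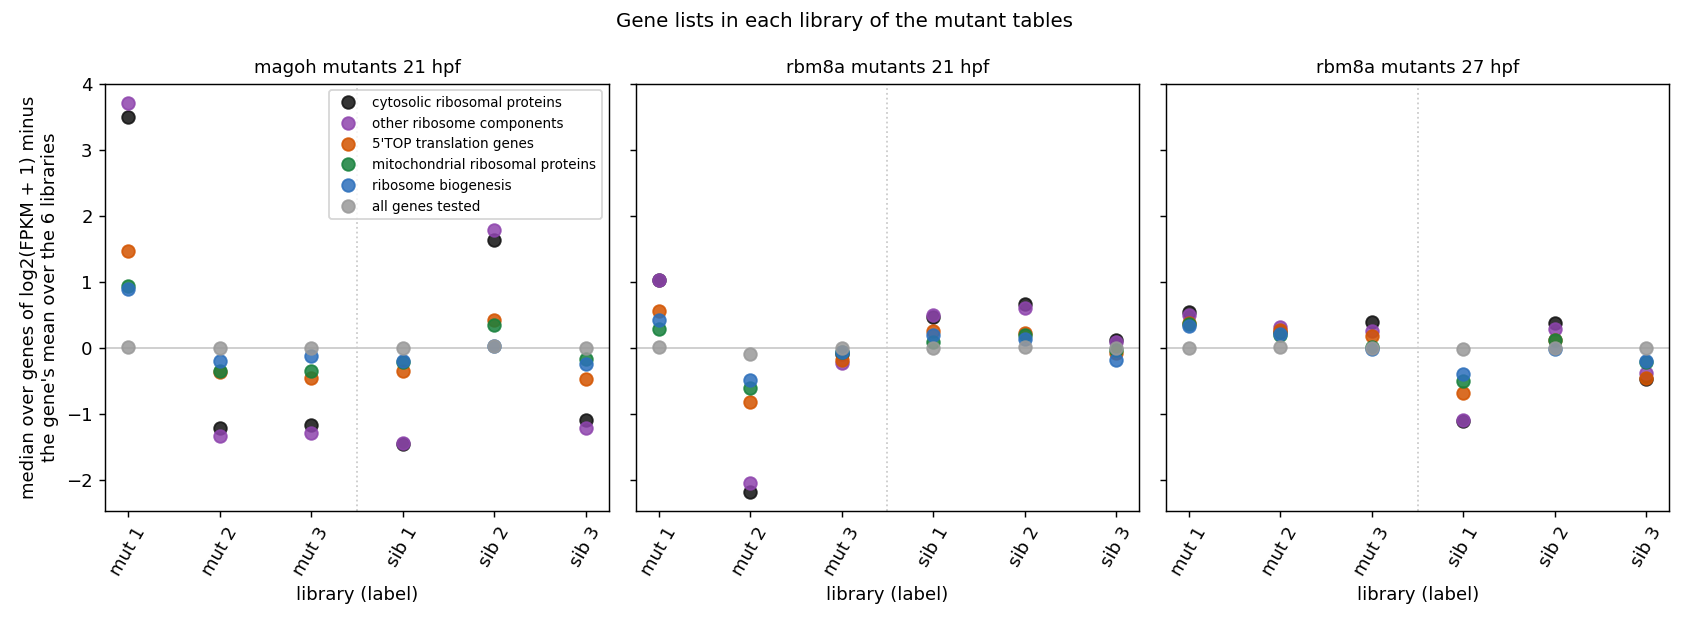
Median over the genes of each list of log2(FPKM + 1) minus the gene's mean over the 6 libraries, for every library of the 3 mutant tables, mutant libraries left and siblings right of the dotted line. The cytosolic ribosomal proteins and the other ribosome components leave 0 together, at 3.50 and 3.72 in the library labelled magoh mutant 1 and at −2.18 and −2.04 in rbm8a mutant 2 at 21 hpf, while all genes tested stay within 0.09 of 0.

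By label, no member passed the test between magoh mutants and siblings. Of 30281 genes 0 were called in limma (adjusted p under 0.05 and at least 1.5-fold, 1 RUVs factor for unwanted variation), which is 0% of genes, and 0 of 77 members; 1332 genes and 13 members had an unadjusted p under 0.05. The fitted log2 difference had a median of 0.39 over the members, 0.39 over the large and 0.40 over the small subunit, and 0.05 over all genes. Among the 3 largest were those of rpl13 (0.77 ± 0.27 SE) and rps13 (0.77 ± 0.31), and the smallest those of rpl32 (−0.72 ± 0.62), rpl29 (−0.66 ± 0.51) and rpl39 (−0.27 ± 0.37), all with an adjusted p of 0.847 to 0.897. Rps13 had 630, 23.1 and 12.3 FPKM in mutant 1, 2 and 3 and 11, 162 and 9.93 FPKM in sibling 1, 2 and 3, so the labels overlapped, as they did for all members. Groups that do not overlap made up 1.93% (higher) and 2.04% (lower) of all genes and 0 members. The median rests on single libraries: it was −0.01 without mutant 1, 0.22 without sibling 2 and 0.09 without both, an alternative chosen after the data were seen. With every library rescaled to an FPKM total of 1000000 it was −0.003, against −0.06 over all genes. Set by place in the table, with no test, the first 3 columns (mutant 1, sibling 1 and mutant 2) stood above the last 3 (sibling 2, mutant 3 and sibling 3) by a median of 0.46 over the members and 0.02 over all genes, with 71 of 77 members above 0.

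In the rbm8a libraries of 21 hpf a single one held the members low. Their median FPKM was 163, 16.1 and 73.7 in the libraries with the labels mutant 1, 2 and 3 and 109, 126 and 87.9 in those labelled sibling 1, 2 and 3. Mutant 2 had the lowest value of 76 members, and mutant 1 the highest of 72. Mutant 2 was also the shallowest of the 22 libraries of the 4 tables, with 1561184 reads, of which 0.296% (0.288 to 0.305%) were on members, against 0.690 to 0.909% in the other 5. The fewest reads behind a member there were 9, for a median of 49. The mutant 2 library departed from the others over all genes tested too (rho 0.392 to 0.565). Its epidermal markers summed to 186 FPKM, against 653 to 1435 FPKM in the other 5 libraries. Yolk syncytial layer, muscle, red cell and nervous system markers were lowest there too, the last at 37.2 FPKM against 43.8 to 71.2 FPKM. Notochord markers went otherwise, at 32.1 FPKM in mutant 2 against 22.2 to 42.3 FPKM in the other 5. The shortest of 10 length groups, with 0 members, had a median deviation of −1.72 in mutant 2, and the next, with 27 members, −0.48. The part of depth, length and these markers was not tested.

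By label the 2 subunits had like values: the fitted median was −0.17 over the 45 large and −0.21 over the 32 small subunit members of rbm8a mutants at 21 hpf (−0.18 over all 77, 0.00 over all genes). In limma 0 of 30411 genes (0%) and 0 members were called, with 660 genes and 0 members at an unadjusted p under 0.05. The smallest fitted differences were those of rps25 (−0.48 ± 0.36 SE), rpl29 (−0.43 ± 0.33) and rps12 (−0.41 ± 0.36) and among the 3 largest were those of rpl7l1 (0.31 ± 0.26) and rpl13a (0.07 ± 0.35), each with an adjusted p of 1.00. Rps25 had 193, 22.1 and 77.9 FPKM in mutant 1, 2 and 3 and 178, 171 and 111 FPKM in sibling 1, 2 and 3. The median was 0.06 without mutant 2, −0.06 without mutant 3 and −0.79 without mutant 1. No member had groups that do not overlap, against 2.12% (higher) and 2.44% (lower) of all genes. By place the first 3 columns (mutant 1, sibling 1, mutant 2) lay below the last 3 (sibling 2, mutant 3, sibling 3), with a median difference of −0.42 over the members and −0.03 over all genes.

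At 27 hpf the members of the rbm8a table lay higher under the mutant label on average, without passing the test. Their median FPKM was 169, 149 and 154 in the libraries with the labels mutant 1, 2 and 3 and 55.8, 149 and 89.9 in those labelled sibling 1, 2 and 3. The 3 mutants and sibling 2 were level, and sibling 1, with the lowest value of 72 members, and sibling 3 lay below. The fitted difference had a median of 0.82 over the members (0.83 large, 0.76 small subunit) and 0.01 over all genes, and was above 0 for 76 of the 77. Related lists lay above 0 too. The median was 0.81 over the other ribosome components and 0.66 over the 5′TOP list. It was 0.36 over ribosome biogenesis factors and 0.33 over mitochondrial ribosomal proteins, with 69 of 73 of the latter above 0. Genes of a list share each library's scaling and are not independent replicates. In limma 0 of 28845 genes (0%) were called and 0 members, with 4283 genes and 0 members at an unadjusted p under 0.05; the smallest adjusted p of a member was 0.337. Groups did not overlap, higher under the mutant label, in 20 of 77 members against 10.5% of all genes, and lower in 0 members against 9.92% of all genes. Those 20 include rplp0 (741, 632 and 622 FPKM in mutant 1, 2 and 3 and 241, 557 and 320 FPKM in sibling 1, 2 and 3), rpl5a, rpl7, rps6 and rps13. The largest fitted differences were those of rpl26 (1.06 ± 0.52 SE), rps4x (1.03 ± 0.45) and rps13 (1.01 ± 0.48), and among the 3 smallest were those of rpl22 (0.46 ± 0.38) and rps15a (0.51 ± 0.45).

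The size of the 27 hpf difference depended on the scaling and the fit. The median over the members was 0.38 under quantile normalization, 0.50 with 2 RUVs factors and 0.04, against −0.12 over all genes, with every library rescaled to the same FPKM total. By place, with no test, the 3 first columns (mutant 1, sibling 1, mutant 2) against the 3 last gave −0.19, against 0.01 over all genes. Without sibling 1 the median was 0.44, and without sibling 2 it was 1.17. The share of reads on the members ordered the libraries otherwise than the FPKM did: 1.07, 1.32 and 0.980% in mutant 1, 2 and 3 and 0.709, 1.12 and 1.44% in sibling 1, 2 and 3. Muscle markers summed to 517, 771 and 582 FPKM in mutant 1, 2 and 3 and 318, 322 and 455 FPKM in sibling 1, 2 and 3, so sibling 2 lay below sibling 3 there, unlike the members. Yolk syncytial layer markers, at 1105, 897 and 904 FPKM in mutant 1, 2 and 3 and 365, 840 and 467 FPKM in sibling 1, 2 and 3, had the siblings in the same order as the members. So did epidermal markers (581, 1324 and 734 FPKM in sibling 1, 2 and 3) and red cell markers (113, 266 and 169 FPKM). Nervous system markers (29.9, 59.1 and 40.3 FPKM) and notochord markers (15.8, 17.9 and 16.8 FPKM) did too, so among the siblings only the muscle list went otherwise. In mutant 1, 2 and 3 epidermal markers had 2042, 1545 and 1347 FPKM and red cell markers 217, 206 and 401 FPKM. Nervous system markers had 60, 47.6 and 70.7 FPKM there, and notochord markers 23.5, 38.3 and 14.2 FPKM. In the red cell, nervous system and notochord lists at least 1 mutant thus lay below sibling 2. For the members, mutant 2 was level with sibling 2 by median FPKM. By median deviation from each gene's own mean it lay below (0.25 against 0.38). The part of these markers was not tested. In bulk RNA of whole embryos fewer cells of a type and less RNA per cell cannot be told apart.

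In upf1 morphants 12 of the 76 members tested fell at an adjusted p under 0.05, 1 rose, and 63 did not pass the test. The median fitted log2 difference was −0.10 over the 76 members (−0.11 over 45 large, −0.10 over 31 small subunit), against 0.00 over all 17057 genes tested, and 74 of the 76 lay below 0. No member reached 1.5-fold: 0 of 76 were called higher, against 1.12% of all genes, and 0 lower, against 1.18%. At an adjusted p under 0.05 and any fold, 1 member was higher (11.2% of all genes) and 12 were lower (12.8% of all genes), so the share that passed is 12 of 76 and near the background. Both morphant libraries lay below both controls in 66 of 76 members, against 33.9% of all genes, and the other way in 1 of 76, against 32.4%. The members share the scaling of each library and are not independent replicates, so these counts do not measure replication. The median difference was smaller in size under quantile normalization, as given below. The members took 9.76 and 9.75% of the FPKM total in morphants and 10.4 and 10.5% in controls, and 4.47 and 4.43% of recovered reads in morphants and 4.81 and 4.8% in controls.

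The 6 members that lay furthest below the controls were rps9, rpl3, rpl10a, rpl5a, rpl27 and rpl36a. Rps9 (ENSDARG00000011405), the counterpart of a bacterial protein that starts assembly of the small subunit, had 549 and 537 FPKM in morphants and 720 and 735 FPKM in controls (log2 difference −0.42 ± 0.04 SE, limma adjusted p = 0.00336). Rpl3 (ENSDARG00000003599), which reaches towards the peptidyl transferase centre, had 848 and 785 FPKM in morphants and 1087 and 1081 FPKM in controls (−0.41 ± 0.06, adjusted p = 0.00682). Rpl10a (ENSDARG00000042905), the protein of the mobile stalk by which deacylated tRNA leaves, had 418 and 411 FPKM in morphants and 538 and 547 FPKM in controls (−0.39 ± 0.04, adjusted p = 0.0034). These fell by 25.4, 24.7 and 23.6%, and in none did the groups overlap.

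Rpl5a (ENSDARG00000020197), which with Rpl11 brings the 5S rRNA into the large subunit, had 399 and 389 FPKM in morphants and 512 and 505 FPKM in controls (−0.37 ± 0.04 SE, limma adjusted p = 0.00392). Rpl27 (ENSDARG00000015128) had 452 and 443 FPKM in morphants and 572 and 577 FPKM in controls (−0.36 ± 0.04, adjusted p = 0.00415). Rpl36a (ENSDARG00000058105), a neighbour of the tRNA exit site, had 450 and 463 FPKM in morphants and 606 and 529 FPKM in controls (−0.31 ± 0.07, adjusted p = 0.0273), and its controls lay further apart than those of the other 5. The partner of Rpl5 on the 5S rRNA, rpl11, had 865 and 821 FPKM in morphants and 872 and 882 FPKM in controls and did not pass the test (−0.06 ± 0.05, adjusted p = 0.452). Rpl12, whose human counterpart has unproductive transcripts as RPL3 does, had 490 and 467 FPKM in morphants and 538 and 521 FPKM in controls (−0.15 ± 0.05, adjusted p = 0.0719).

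**Figure D3:**
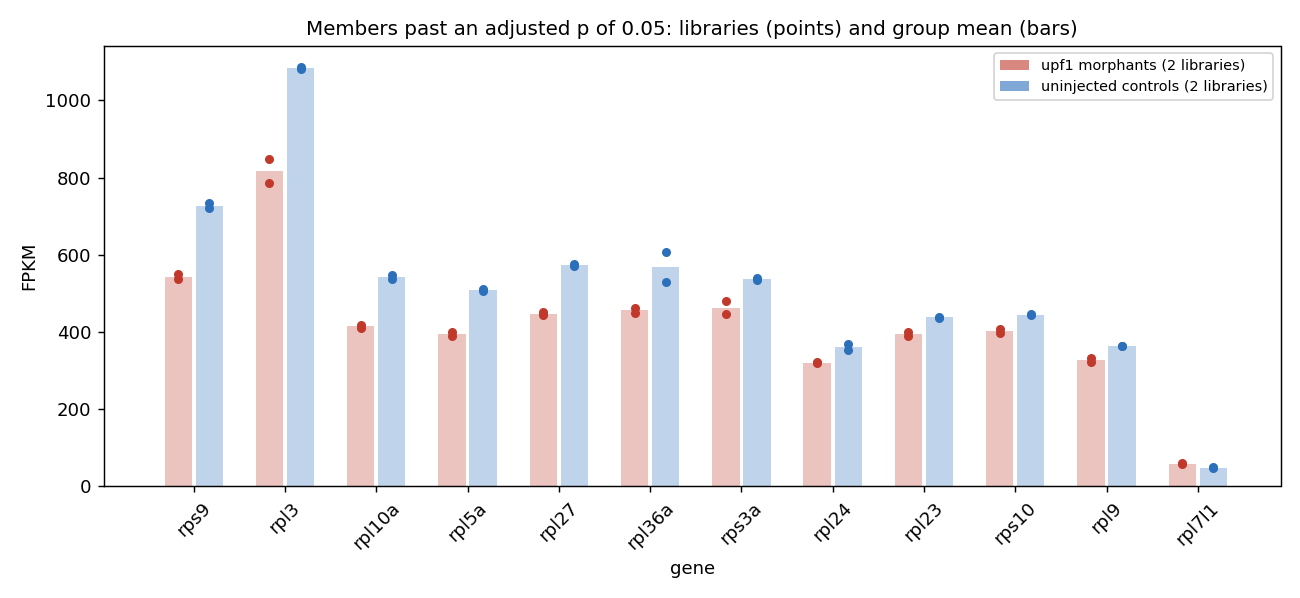
FPKM of 12 of the 13 members past an adjusted p of 0.05 at any fold, with the 2 morphant libraries (red) left of the 2 uninjected controls (blue), points for libraries and bars for group means. In 11 genes both morphant points lie below both controls, with the largest fitted log2 difference in rps9 (549 and 537 against 720 and 735 FPKM), and in rpl7l1 both lie above (59.9 and 57.6 against 47.5 and 49.6 FPKM).

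The other 6 members below an adjusted p of 0.05 fell less: rps3a fell by 13.8% and rpl9, the least of them, fell by 9.63%. They include rps3a, near the exit of the mRNA channel (481 and 446 FPKM in morphants and 534 and 541 FPKM in controls), rpl24, which forms a bridge between the subunits (322 and 319 FPKM in morphants and 368 and 352 FPKM in controls), rpl23, rps10 and rpl9. Their adjusted p of 0.0322 to 0.0483 lies just under the threshold. Members of like size just above it were rpl28 (585 and 555 FPKM in morphants and 632 and 643 FPKM in controls, adjusted p = 0.0582) and rpl6 (1075 and 1104 FPKM in morphants and 1215 and 1218 FPKM in controls, adjusted p = 0.0706). The more abundant rplp0 and rps2 had log2 differences of −0.17 and −0.18 with an adjusted p of 0.0765 and 0.0759. The difference of rps7 (1079 and 981 FPKM in morphants and 1026 and 1050 FPKM in controls) was −0.01, and that of rps28 (184 and 174 FPKM in morphants and 175 and 176 FPKM in controls) was 0.03. Their groups overlapped.

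One member rose in the morphants, rpl7l1 (ENSDARG00000042864), a diverged copy of rpl7 whose human counterpart is found in precursors of the large subunit. It had 59.9 and 57.6 FPKM in morphants and 47.5 and 49.6 FPKM in controls (0.27 ± 0.04 SE, 20.6% higher, limma adjusted p = 0.00818), while rpl7 itself had 649 and 642 FPKM in morphants and 658 and 669 FPKM in controls (−0.04 ± 0.04, adjusted p = 0.545). The gene left out of the members as rpl22l1, a copy of rpl22, was called lower, with 42.8 and 42.7 FPKM in morphants and 90.1 and 90.7 FPKM in controls (−1.06 ± 0.03, adjusted p = 9.95e-05), while rpl22 had 227 and 238 FPKM in morphants and 250 and 245 FPKM in controls (−0.09 ± 0.04, adjusted p = 0.165). Copies also differed in rpl5, as rpl5b had 779 and 754 FPKM in morphants and 814 and 814 FPKM in controls (−0.09 ± 0.05, adjusted p = 0.229), and rpl5a stood at 0.513 and 0.516 of rpl5b in morphants and 0.630 and 0.621 in controls. Whether the copies differ in their response was not tested.

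The other pairs of copies kept their ratio more nearly at 12 hpf. Rps27.1 stood at 2.95 and 2.88 times rps27.2 in morphants and 3.14 and 3.08 times in controls, rps26 at 0.346 and 0.360 of rps26l in morphants and 0.361 and 0.353 in controls, and rplp2 at 0.250 and 0.240 of rplp2l in morphants and 0.242 and 0.215 in controls. Among the magoh libraries several pairs differed in ratio from library to library. Rpl7 stood at 9.45 times rpl7l1 in the library labelled mutant 3 and 49.6 times in mutant 2. The latter ratio rests on rpl7l1 at 0.193 FPKM, the lowest member value of mutant 2 and below the 0.5 FPKM of the filter. Rps26 was at 0.497 of rps26l in the library labelled mutant 1 and 0.654 in sibling 2, and 1.05 to 2.03 in the other 4. Rps27.1 stood at 3.04 times rps27.2 in mutant 1 and 2.89 times in sibling 2, against 0.540 to 1.46 times in the other 4. The ratio of rpl5a to rpl5b in mutant 1 (0.776) and sibling 2 (0.821) lay within that of the other 4 (0.534 to 0.967), and rplp2 stood at 0.360 of rplp2l in mutant 1 and 0.367 in sibling 2, against 0.221 to 0.306 in the other 4. The counting rule for reads that fit both copies is not given in the sources used here, so the split within a pair is uncertain.

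**Figure D4:**
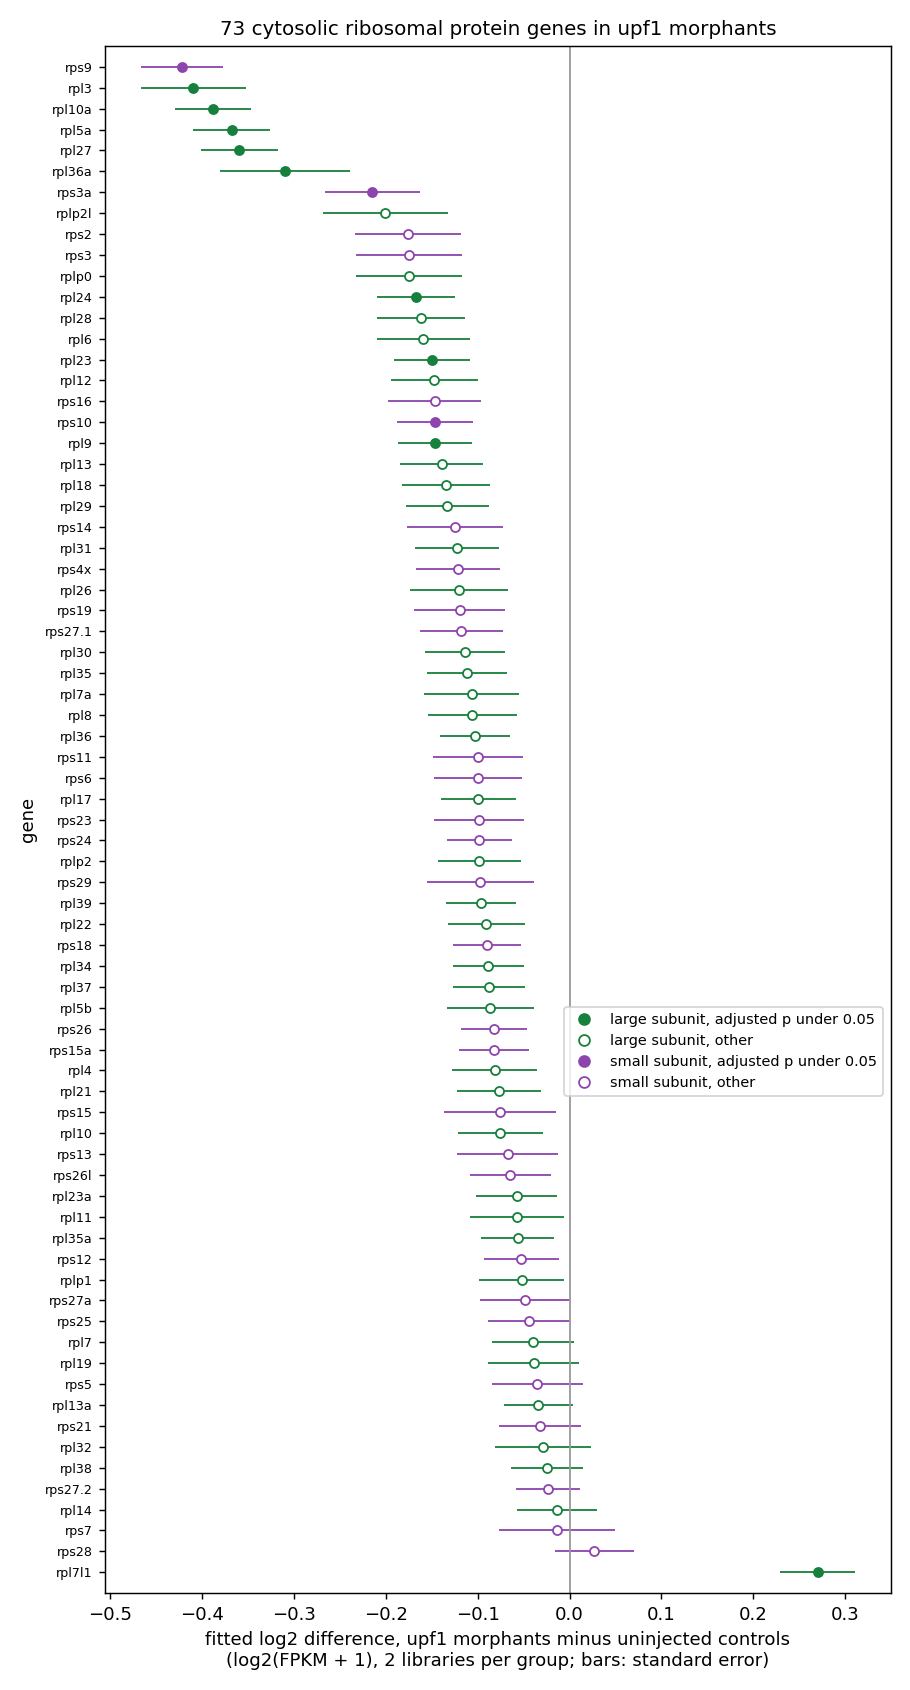
Fitted log2 difference (upf1 morphants minus uninjected controls, log2 of FPKM + 1) with its standard error for 73 of the 76 members tested, green for the large and purple for the small subunit, filled where the adjusted p is under 0.05. From rps9 at −0.42 to rpl36a at −0.31, 6 genes lie furthest below 0, followed by rps3a at −0.21, whose bar overlaps that of rpl36a. On the other side rpl7l1 stands alone at 0.27. Under quantile normalization the median of all 76 moves from −0.10 to −0.03.

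Some members carry an intron in the 3′UTR in the study's list, which is held here in shortened form: among them rps21, rps24, rpl7, rpl9 and rps25 near the stop codon, rps13 further from it, and rpl10a in a remaining class. An intron far enough after the stop codon is a mark by which the EJC can direct an mRNA to NMD. Whether an intron near the stop codon is enough remains untested by the study's own account. In upf1 morphants 0 of the 8 listed were higher at an adjusted p under 0.05, against 11.2% of all genes, and 3 were lower (rpl10a and rpl9 among them), against 12.8%. The difference was −0.10 for rps24 (89.6 and 92.1 FPKM in morphants and 97.5 and 97.0 FPKM in controls), −0.03 for rps21 (343 and 328 FPKM in morphants and 337 and 350 FPKM in controls) and −0.07 for rps13 (681 and 639 FPKM in morphants and 708 and 674 FPKM in controls). In the mutant tables these 8 moved with the other members, at a median deviation of 3.48 in the library labelled magoh mutant 1 and −2.19 in rbm8a mutant 2 at 21 hpf.

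Of the lists around the ribosome, biogenesis factors and mitochondrial ribosomal proteins had medians above 0 in the morphants and the other lists below 0. Of the 94 ribosome biogenesis factors measured, 43 were higher at an adjusted p under 0.05 (11.2% of all genes) and 5 lower (12.8%), nol10, npm1b, polr1a, polr1c and utp6, with a median of 0.14. One was called at 1.5-fold, rrn3, an initiation factor of RNA polymerase I, with 22.3 and 23.1 FPKM in morphants and 14.8 and 14.1 FPKM in controls (0.62 ± 0.04 SE, limma adjusted p = 0.00115). Of the 73 mitochondrial ribosomal proteins 32 were higher and 1 lower, with a median of 0.16. The 1 that was lower was called, mrpl39, with 5.25 and 5.32 FPKM in morphants and 18.5 and 18.6 FPKM in controls (−1.64 ± 0.04, adjusted p = 7.94e-05). Of the 26 genes of the 5′TOP list that were tested, 0 were higher and 5 lower (pabpc1b, eef1g, eef1db, eef1b2 and eif3s6ip). Their median was −0.09, close to that of the members. Of the 6 other ribosome components faub was higher and gnb2l1 and rpl22l1 were lower. Genes named in these counts below 1.5-fold were chosen after their values were seen.

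**Figure D5:**
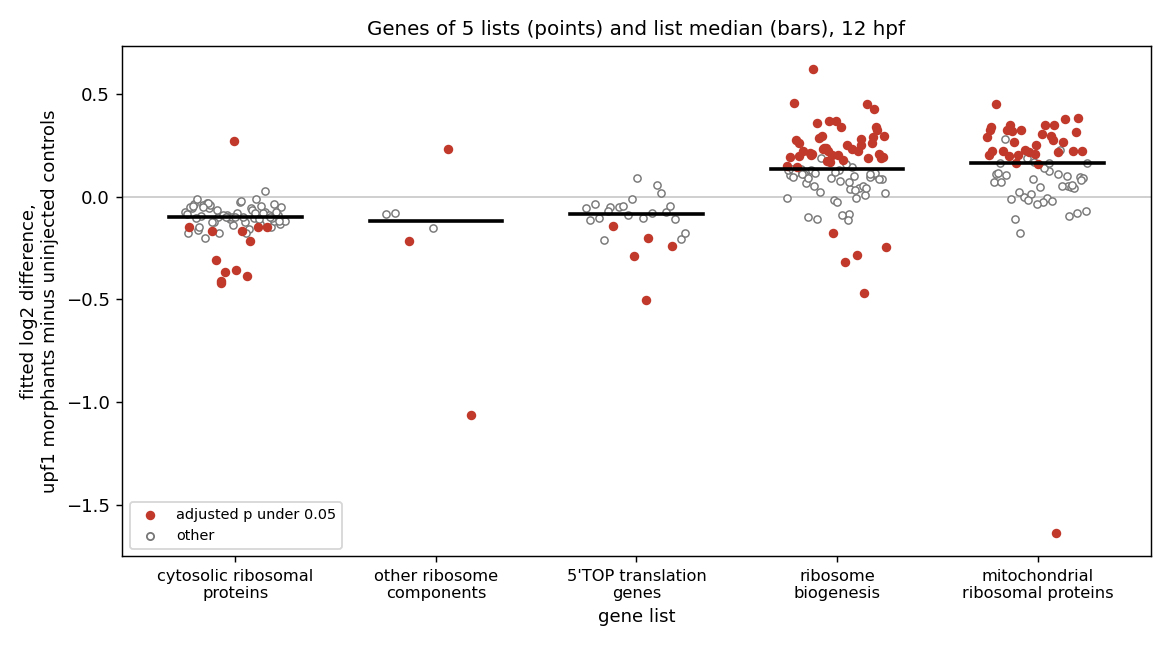
Fitted log2 difference (upf1 morphants minus uninjected controls) of each gene of 5 lists (points, red where the adjusted p is under 0.05) with the list median (bars). The cytosolic ribosomal proteins (median −0.10) and the 5′TOP list (−0.09, labelled 5′TOP translation genes) lie below 0. Ribosome biogenesis (0.14) and mitochondrial ribosomal proteins (0.16) lie above it.

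Which members passed the adjusted p at any fold rested in part on the normalization and on single libraries. Of the 13 that passed, 4 (rps9, rpl10a, rpl5a and rpl27) passed under all 9 alternatives, and rpl3 under 8, missing with an adjusted p of 0.0521 without control 1. With quantile normalization 5 members were lower at an adjusted p under 0.05 and the median was −0.03; without control 1, control 2 or morphant 2 the count was 4, 6 or 5, and rpl7l1 had an adjusted p of 0.0569 without control 1. Nervous system markers summed to 189 and 182 FPKM in morphants and 236 and 221 FPKM in controls and muscle markers to 28.2 and 30.8 FPKM in morphants and 36.9 and 37.6 FPKM in controls. Yolk syncytial layer markers summed to 1270 and 1292 FPKM in morphants and 1472 and 1552 FPKM in controls, and epidermal markers overlapped, at 7126 and 6541 FPKM in morphants and 7066 and 6891 FPKM in controls. Their part in the members' difference was not tested.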

How the data were processed

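The 4 RNA-Seq tables hold the FPKM of each gene and library, which the authors computed with DESeq2 from reads mapped to GRCz10 by TopHat2 (2.0.14) and counted per gene. The aligner could report up to 20 places for a read, and the rule by which such reads were counted is not given in the sources used here. The authors also deposited 1 signal per gene, its mean normalized count in that table. Columns with the authors' own comparison (log2 fold change, its error, test statistic, p and adjusted p) and the RIP-Seq table were not used. Single-end reads of the mutant tables and paired-end reads of the morphant table were scaled separately, so tests stayed within a table.

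Genes with at least 0.5 FPKM in 3 mutant-table or 2 morphant-table libraries entered limma 3.58.1 as log2(FPKM + 1) (trended prior, R 4.3.3), with 1 RUVs factor in the mutants, whose number the sources do not give, and none in the morphants. Residual degrees of freedom were 3 and 2. Calls needed an adjusted p (Benjamini-Hochberg, over all genes tested) under 0.05 and at least 1.5-fold, and a fold on this scale understates the change of low genes. Reads were recovered by multiplying each FPKM by the gene's mean normalized count over its mean FPKM and dividing by the smallest nonzero value of the library: 100% of values under 200 came within 0.05 of a whole number. Replicates differed by more than sampling noise in every group. The fit was also run on simulated data with noise drawn separately for each gene, and the outcome is not given here.

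The members and lists were chosen with earlier results of these data known. Named are members called, the 3 largest and 3 smallest differences and the 3 highest and lowest levels per table, pairs of copies, members with a 3′UTR intron, called genes of other lists and the targeted genes; rpl11, rpl12, rpl22, rpl28, rpl6, rps6 and the members past the adjusted p below 1.5-fold were added after their values were seen. Results of a few members and list genes are not reported here. Alternatives were pseudocount 0.1, no filter, a rescaled FPKM total of 1000000, quantile normalization, a replicate block, 0 and 2 RUVs factors, no fold threshold and each library left out. Python 3.11.15, numpy 2.4.6, pandas 2.3.3, scipy 1.17.1 and matplotlib 3.10.9 were used.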

Additional observations from a re-analysis of the deposited data

How the results depend on the processing

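No member was called at 1.5-fold under any alternative run in any of the 4 comparisons. With no fold threshold 1 member was higher and 12 were lower in upf1 morphants. The count of 12 lower was 5 with no filter on low values, 5 with quantile normalization and 4 to 10 with 1 library left out, and the count of 1 higher was 0 to 1, with 0 without control 1; leaving out a library leaves 1 in that group, which is assumed to vary like the others. The median in upf1 morphants was −0.025 under quantile normalization. The median in rbm8a mutants at 27 hpf was 0.045 with the FPKM total rescaled, where that of all genes was −0.12, and −0.19 by place in the table. Single members changed sign. With the total rescaled at 27 hpf rpl22 had −0.49, rpl26 −0.11 and rps15a −0.13, and in upf1 morphants rps7 had 0.011, or 0.053 under quantile normalization. In rbm8a mutants at 21 hpf rpl13a had −0.11 under quantile normalization. With 1 library left out, rpl29 ranged over −1.29 to 0.14, rpl32 over −1.38 to 0.27 and rpl39 over −0.74 to 0.28 for magoh, rpl13a over −0.55 to 0.29 for rbm8a at 21 hpf, and rps28 over −0.016 to 0.070 and rps7 over −0.082 to 0.055 in upf1 morphants. The cause of these changes was not tested.

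Same-numbered libraries did not deviate together in every pair (correlations of −0.776, −0.708 and 0.645 in the magoh table, −0.475 to −0.146 and −0.454 to −0.172 in the rbm8a tables at 21 and 27 hpf, and 0.176 over the 2 upf1 pairs), and nothing in the labels gives the numbers a shared source, so they were not taken to pair the libraries. With the replicate block, as with 0 RUVs factors, the median was 0.68 for magoh, −0.84 for the earlier and 0.79 for the later rbm8a stage, and rpl39 (0.036, magoh), rpl13a (−0.52) and rpl7l1 (−0.14, both rbm8a at 21 hpf) changed sign. In upf1 morphants the block left a median of −0.10 with 12 lower and 1 higher. It changed no call at 1.5-fold.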
